A study of Mus musculus with 6 samples.

Results

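Of 26835 genes with values, 10 encode the NF-κB transcription factor subunits and their IκB inhibitors, and these were followed in mouse bone marrow-derived macrophages given vesicles of an osteosarcoma cell line. The members were taken by symbol: the canonical subunit genes Rela, Rel and Nfkb1, the non-canonical subunit genes Relb and Nfkb2, the cytoplasmic inhibitor genes Nfkbia, Nfkbib and Nfkbie, and the nuclear inhibitor genes Nfkbiz and Bcl3. Marrow of wild-type BALB/C mice aged 5 to 8 weeks was grown for 6 days with 10% serum and the growth factor M-CSF at 25 ng/ml. The cells were then given PBS (phosphate-buffered saline) or 10 µg of K7M2 extracellular vesicles for 24 hours, K7M2 being an osteosarcoma line of the mouse, with 3 biological replicates in each of the 2 groups. A single dose, a single time and vesicles of a single tumour line were used, so a response to vesicles in general cannot be told apart from a response to K7M2 vesicles. RNA was sequenced, and levels are in FPKM, which is fragments scaled to the length taken for a gene and to library size. Comparisons of levels between different genes rest on the length taken for each, and its effect was not tested.

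NF-κB factors are dimers of Rel-homology proteins that are held in the cytoplasm by IκB proteins. In the canonical route an IκB kinase complex marks IκBα, IκBβ or IκBε for destruction, and dimers such as RelA with the Nfkb1 product enter the nucleus. In the non-canonical route the kinase NIK drives processing of the Nfkb2 precursor, which then acts with RelB. Many of these genes are themselves NF-κB targets, and in macrophages the renewed synthesis of IκBα is the textbook example of negative feedback. IκBζ (from Nfkbiz) and Bcl-3 differ from the cytoplasmic inhibitors in that they act in the nucleus, where they bind subunits on DNA and can favour or block transcription.

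The κB consensus is the DNA motif that these dimers bind. It was searched on both strands in the 250 bases before each RefSeq start on GRCm38.p6. Windows were found for 7 of the 10 members, namely Rela, Rel, Nfkb2, Nfkbia, Nfkbib, Nfkbie and Bcl3. Exact matches lay in 6 of their 9 windows, those of Rel, Nfkb2 (with 3 windows), Nfkbia and Nfkbie, whereas 3.9% of 32851 windows of all genes held a match. A looser form of the motif, with only its outer bases fixed, was in windows of 6 of the 7 members and in 45.8% of all windows. The former counts genes, of which Nfkb2 had 3 windows, so the 2 values are not alike. The member windows held 57.6% to 77.6% G and C, and no comparison with all windows was made for this content. The stretches below, written 5′ to 3′ on the gene's own strand, show the matches of these 4 genes in capitals. Adjoining or overlapping matches run together. For Rel, Nfkbia and Nfkbie they are the last 120 bases before the start. For Nfkb2 they are 30 bases that end 21 bases before its first start, which also lie in the first exon of a longer GENCODE isoform.
Nfkbia, chr12:55492648-55492767, minus strand: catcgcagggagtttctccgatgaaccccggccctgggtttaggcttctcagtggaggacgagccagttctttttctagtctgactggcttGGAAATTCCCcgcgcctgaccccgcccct
Nfkb2, chr19:46304687-46304716, plus strand: gggatcgtcacGGGAATTCCCCccctcggg
Rel, chr11:23770970-23771089, minus strand: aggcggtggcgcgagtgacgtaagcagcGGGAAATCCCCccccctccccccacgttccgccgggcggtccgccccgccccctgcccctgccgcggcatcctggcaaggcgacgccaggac
Nfkbie, chr17:45555580-45555699, plus strand: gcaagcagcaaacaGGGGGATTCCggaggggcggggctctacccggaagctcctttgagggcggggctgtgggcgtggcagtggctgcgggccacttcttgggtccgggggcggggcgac
The Nfkbia match begins 29 bases before the start, the nearest of these to a start in the stretches shown. Nfkb2 had a further match, GGGGCTTTCC, from 11 to 2 bases before the same start, and its other 2 annotated starts had 1 match each. No exact match was found in the windows of Rela, Nfkbib or Bcl3. The Nfkbib window, 28766645 to 28766894, lies inside the GENCODE span of that minus-strand gene, which reaches 28767512. The bases before that outer end were not searched. A match of letters is a description of the sequence and does not show binding.

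The spacing of the FPKM values implied between 21435175 and 25604506 fragments per library. All 10 members were above 1 FPKM in every library and were backed by about 147 to 9741 fragments each, so that counting error was at most 8.25% (Bcl3 in its lowest library). The macrophage label was checked with 8 marker genes including Adgre1 and Lyz2. Their summed level was 4077 to 4963 FPKM in the PBS libraries and 12465 to 13951 FPKM in the vesicle libraries, with 6 of the 8 called higher and 1 lower. The 7 neutrophil markers with values summed to 3.17 to 5.46 FPKM in PBS libraries and 39.6 to 44.2 FPKM in vesicle libraries, while Ly6g, Cxcr2, Mpo and Ngp were under 1 FPKM in every library. Of these 7, 3 passed the filter and 2 were called higher. Among 11 mesenchymal and osteoblast markers, which osteosarcoma cells also express, 6 passed the filter, of which 0 were higher and 1 was lower. The 11 summed to 124 to 296 FPKM in PBS libraries and 206 to 573 FPKM in vesicle libraries. Replicate 2 stood apart in these markers, with a sum of 296 FPKM in its PBS library and 573 FPKM in its vesicle library, against at most 212 FPKM in the other 4 libraries. In bulk RNA, a change in the share of a cell type and a change in RNA per cell cannot be told apart, and the part of these markers in the results below was not tested.

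Of the 10 members, 9 were higher with vesicles and 0 were lower, while Rela was not called (limma, adjusted p under 0.05 over 13009 genes). In those 9 genes every vesicle library lay above every PBS library. Among all genes tested, 18.4% were called higher, 35.6% were called lower (54% in either direction) and 21.8% had all vesicle libraries above all PBS libraries. The split of all genes depended on the scaling: 2395 were higher and 4631 lower as deposited, against 3445 higher and 3376 lower after median-of-ratios scaling, which brings the median gene near 0. With that scaling, 26.5% of genes were called higher and the same count of 9 members. The median log2 fold change, on the log2(FPKM + 1) scale used throughout, was 1.26 over the members and -0.12 over all genes. The 5 inhibitor genes had a median of 2.78 and the 5 subunit genes 0.89. By class the medians were 0.67 for canonical and 1.69 for non-canonical subunits, and 1.04 for cytoplasmic and 3.33 for nuclear inhibitors. A log2 fold change of at least 1 together with the call was reached by 6 members (Nfkb2, Relb, Nfkbia, Nfkbib, Nfkbiz and Bcl3) and by 4.61% of all genes. Which members reached it depended on the processing. After median-of-ratios scaling Nfkb1 (1.03) and Nfkbie (1.10) also did, and without PBS replicate 2 Nfkbib was at 0.98. Without both libraries of replicate 2, the count of members called was again 9 higher and 0 lower.

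**Figure D1:**
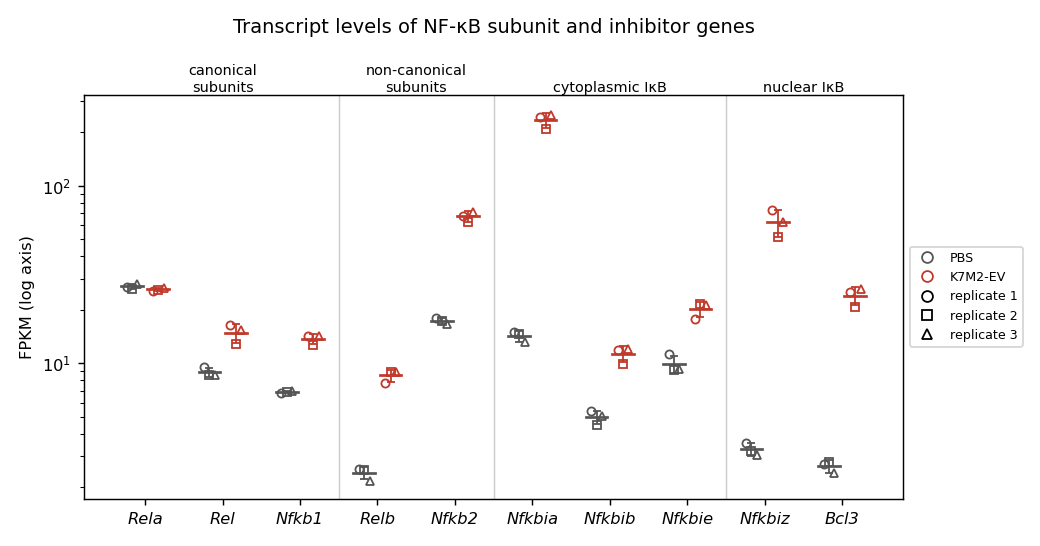
FPKM (log axis) of the 10 genes in each library, with PBS in grey and K7M2 vesicles in red. Symbols mark the replicate number, horizontal bars the mean and vertical bars the SD of 3 libraries. The groups overlap only for Rela.

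Rela encodes RelA, a subunit with a transactivation domain, which carries most canonical signalling, and lies on chromosome 19 at 5637483 to 5648130 (plus strand). Its level was 27.0, 26.3 and 28.1 FPKM in PBS replicates 1 to 3 and 25.7, 26.0 and 26.6 FPKM in the vesicle replicates. The 2 groups overlapped, and their means of 27.1 ± 0.903 and 26.1 ± 0.469 FPKM (SD, n = 3) gave a log2 fold change of -0.054 (95% interval -0.17 to 0.064, adjusted p = 0.389). The sign depended on the scaling, which was 0.089 after median-of-ratios scaling (adjusted p = 0.22). Among the vesicle libraries Rela also had the smallest relative spread of any member, with a coefficient of variation of 1.8%. Among the PBS libraries Nfkb1 had a smaller one, at 1.09%.

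Rel encodes c-Rel, the canonical subunit typical of blood cells, and lies on chromosome 11 at 23736847 to 23770970 (minus strand). Its PBS libraries held 9.52, 8.63 and 8.57 FPKM and its vesicle libraries 16.4, 12.8 and 15.4 FPKM. The lowest vesicle library, replicate 2, was still above the highest PBS library. The ratio of means was 1.67 and the log2 fold change 0.67 ± 0.095 (SE, adjusted p = 0.00134), the smallest rise among the 9 genes called. Nfkb1 encodes the precursor of the DNA-binding partner of RelA and lies on chromosome 3 at 135584655 to 135691547 (minus strand). PBS libraries held 6.84, 6.89 and 6.99 FPKM of it and vesicle libraries 14.2, 12.7 and 14.2 FPKM. That was a ratio of means of 1.98 and a log2 fold change of 0.89 ± 0.058 (adjusted p = 4.89e-05), and the groups lay well apart.

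The non-canonical subunit genes had larger fold changes, a difference between genes that was not tested except in the ratios below. Relb encodes RelB, the partner of processed Nfkb2 protein, and lies on chromosome 7 at 19606217 to 19629438 (minus strand). It was the least abundant member in both groups, with 2.53, 2.52 and 2.18 FPKM in PBS libraries and 7.77, 8.88 and 8.97 FPKM in vesicle libraries. Its mean was thus 3.55 times higher, with a log2 fold change of 1.48 ± 0.076 (adjusted p = 2.09e-05). Nfkb2, whose precursor both restrains RelB and yields its partner, lies on chromosome 19 at 46304320 to 46312385 (plus strand). It had 18.0, 17.4 and 16.7 FPKM in PBS libraries and 67.4, 62.5 and 71.6 FPKM in vesicle libraries, with no overlap for either gene. The mean rose 3.87-fold, a log2 fold change of 1.89 ± 0.066 (adjusted p = 5.66e-06), and only 218 of the 13009 genes tested had a larger one.

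**Figure D2:**
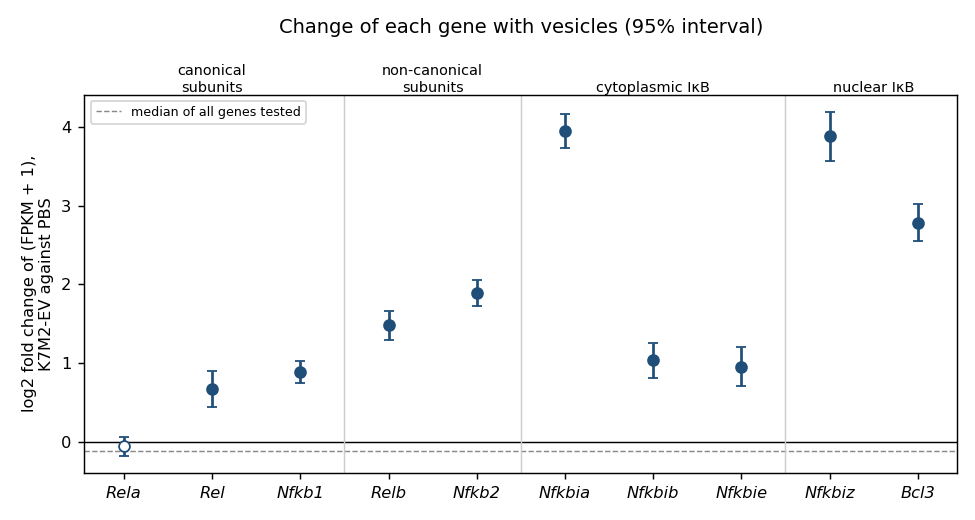
Log2 fold change of (FPKM + 1) for each gene, K7M2 vesicles against PBS, with its 95% interval from limma; filled points passed an adjusted p of 0.05. Rela lies at -0.054 with an interval across 0, and Nfkbia (3.95) and Nfkbiz (3.88) lie highest.

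Among the cytoplasmic inhibitors, Nfkbia stood far above its relatives. It encodes IκBα and lies on chromosome 12 at 55489410 to 55492647 (minus strand), just downstream of the first stretch printed above. PBS libraries held 14.96, 14.6 and 13.1 FPKM and vesicle libraries 243, 208 and 252 FPKM. The mean went up 16.5-fold, with a log2 fold change of 3.95 ± 0.091 (adjusted p = 1.7e-06), and 35 genes of all tested had a larger one. Nfkbib encodes IκBβ and lies on chromosome 7 at 28758251 to 28767512 (minus strand). Its levels were 5.36, 4.51 and 5.04 FPKM in PBS libraries and 11.9, 9.94 and 12.0 FPKM in vesicle libraries, a ratio of means of 2.27 (log2 fold change 1.04 ± 0.09, adjusted p = 0.000171). Nfkbie encodes IκBε and lies on chromosome 17 at 45555703 to 45563169 (plus strand). Its PBS values were 11.2, 9.21 and 9.31 FPKM and its vesicle values 17.8, 21.6 and 21.2 FPKM, a ratio of means of 2.04 (log2 fold change 0.96 ± 0.1, adjusted p = 0.000403). For all 3 inhibitors the vesicle libraries lay above the PBS libraries. Nfkbie was highest in replicate 2 of the vesicle libraries, the library in which 7 other members were lowest.

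Both nuclear inhibitor genes were low with PBS and well expressed with vesicles. Nfkbiz encodes IκBζ, a coactivator needed for a set of late inflammatory genes, and lies on chromosome 16 at 55811375 to 55838899 (minus strand). Its values were 3.56, 3.22 and 3.05 FPKM in PBS libraries and 73.1, 51.3 and 62.9 FPKM in vesicle libraries. The 19.1-fold ratio of means was the largest of the 10 members. On the log2(FPKM + 1) scale, which understates changes of low genes, its fold change of 3.88 ± 0.13 (adjusted p = 4.8e-06) was just below that of Nfkbia. The vesicle values spread more than those of any other member, with a coefficient of variation of 17.5%. Bcl3 encodes a partner of the Nfkb1 and Nfkb2 products and lies on chromosome 7 at 19808462 to 19822770 (minus strand). It had 2.72, 2.77 and 2.39 FPKM in PBS libraries and 25.2, 20.8 and 26.2 FPKM in vesicle libraries, again without overlap. That gave a ratio of means of 9.16 and a log2 fold change of 2.78 ± 0.096 (adjusted p = 5.53e-06).

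Several of these genes share exonic bases with genes on the opposite strand, and whether the counting used strand is not stated in the labels. Nfkb2 shares 531 bases with AC114539.1 and 299 with Psd, Nfkbib shares 314 with Ccer2 and 42 with Sirt2, and Bcl3 shares 161 with Gm16175. Psd, Ccer2 and Gm16175 averaged at most 0.172 FPKM in either group. Sirt2 went from 6.06 to 4.84 FPKM, the opposite direction to Nfkbib. AC114539.1 was not analysed here.

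The order of the levels changed between the groups. With PBS it ran Rela, Nfkb2, Nfkbia, Nfkbie, Rel, Nfkb1, Nfkbib, Nfkbiz, Bcl3 and Relb, and neighbours in that order overlapped only for Nfkbie with Rel and Bcl3 with Relb. With vesicles Nfkbia came first, followed by Nfkb2 and Nfkbiz, whose ranges overlapped (62.5 to 71.6 and 51.3 to 73.1 FPKM). Rela, Bcl3 and Nfkbie came next, with ranges that overlapped from each to the next, then Rel and Nfkb1, which also overlapped, then Nfkbib and Relb. Nfkbiz and Bcl3 thus moved up from places 8 and 9 to places 3 and 5.

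Summed over the 5 subunit genes, the level was 61.7 to 63.8 FPKM in PBS libraries and 123 to 137 FPKM in vesicle libraries. The 5 inhibitor genes together went from 32.9 to 37.8 FPKM up to 312 to 374 FPKM. Inhibitor transcripts therefore amounted to 0.558 ± 0.033 of subunit transcripts with PBS and 2.7 ± 0.147 with vesicles (SD, n = 3). This sum counts Nfkbiz and Bcl3 as inhibitors, although their proteins can also favour transcription. Like the order of levels and the shares, it also rests on the length taken for each gene. Within the subunits, Rela was the largest share with PBS at 43.3 ± 1.44% and made up 20.04 ± 0.968% with vesicles, while Nfkb2 went from 27.7 ± 0.839% to 51.5 ± 0.784%. Nfkb1 had 11.02 ± 0.268% and 10.5 ± 0.269%. Within the inhibitors, Nfkbia went from 40.7 ± 1.63% to 66.5 ± 0.929%, and Nfkbie from 28.3 ± 1.4% to 5.8 ± 1.07% although its own level rose. Nfkbiz took 9.35% with PBS and 17.7% with vesicles, Nfkbib 14.2% and 3.2%, and Bcl3 7.51% and 6.83%. Shares add up to a whole, so a rise of Nfkbia or Nfkb2 lowers the others by construction, and these values carry no test.

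**Figure D3:**
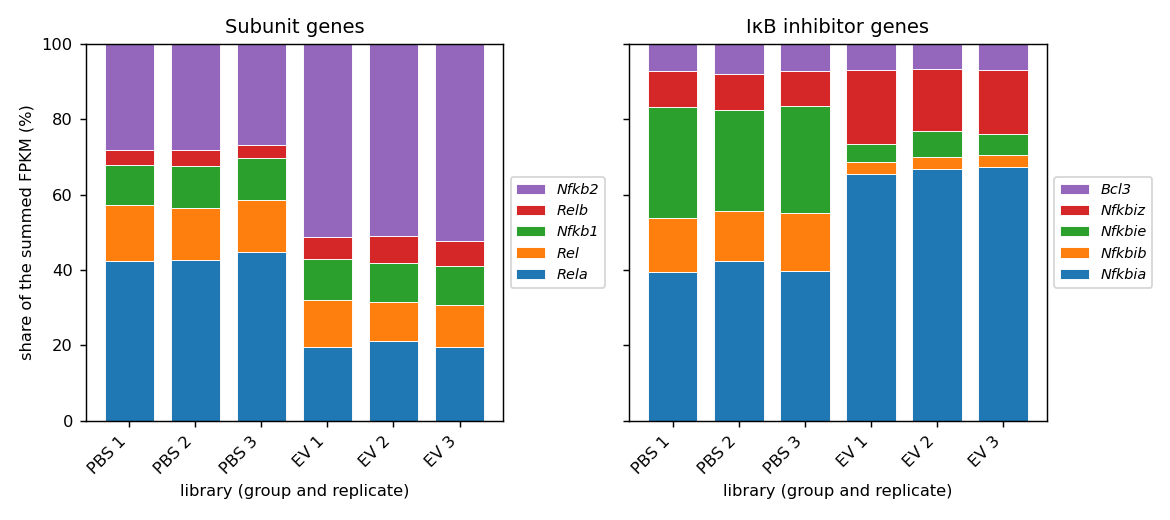
Share (%) of the summed FPKM of the 5 subunit genes (left) and of the 5 inhibitor genes (right) in each of the 6 libraries. Nfkb2 takes 50.8 to 52.4% of subunit transcripts with vesicles and 26.7 to 28.2% with PBS, and Nfkbia 65.5 to 67.3% against 39.6 to 42.5% of inhibitor transcripts.

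Ratios of 2 members within a library do not depend on how that library was scaled, and 7 pairs were compared. Nfkb2 over Nfkb1 was 2.63, 2.52 and 2.39 with PBS and 4.74, 4.93 and 5.04 with vesicles, a change of 1.95-fold. Relb over Rela changed most among the 3 ratios of 2 subunits that were compared, from 0.0936, 0.0959 and 0.0778 to 0.303, 0.342 and 0.338, or 3.69-fold. For Rel over Rela the change was 1.73-fold, from 0.329 ± 0.0236 to 0.571 ± 0.0731. None of these 3 ratios overlapped between the groups.

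Nfkbia over Rela, the main cytoplasmic inhibitor against the main canonical activator, went from 0.554, 0.555 and 0.468 to 9.47, 8.0 and 9.47, a change of 17.1-fold. Nfkbib over Nfkbia was 7.25-fold lower, going from 0.351 ± 0.0382 to 0.0481 ± 0.000567, and Nfkbie over Nfkbia 8.06-fold lower, from 0.697 ± 0.06 to 0.0871 ± 0.0154. Bcl3 over Nfkbiz was 0.763, 0.861 and 0.785 with PBS and 0.344, 0.406 and 0.417 with vesicles, or 2.07-fold lower. Each of the 7 differences had p = 0.1 (two-sided exact permutation test, n = 3 per group; adjusted p = 0.1 over the 7 pairs), which is the smallest p that 3 against 3 libraries can give and does not pass 0.05.

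**Figure D4:**
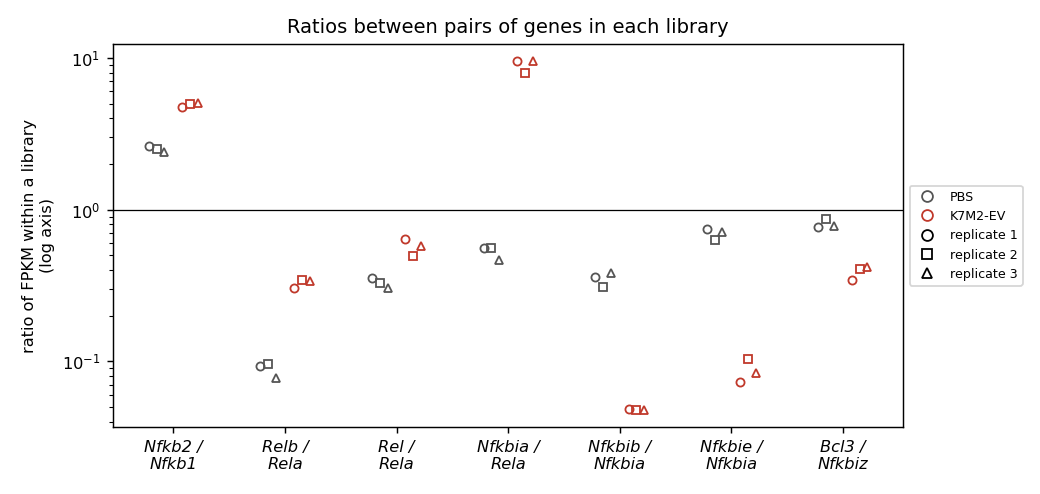
Ratio of the FPKM of 2 genes in each library (log axis), PBS in grey and K7M2 vesicles in red, with symbols for the replicate number. In all 7 pairs the vesicle libraries lie apart from the PBS libraries, farthest for Nfkbia over Rela.

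The kinases above the IκB proteins gave 2 of 10 higher, 2 lower and 6 not called. Of all genes 18.4% were called higher and 35.6% lower, so the 20% higher was near that background and the 20% lower was below it. The genes of the IκB kinase complex itself, named after their values were seen, were not called: Chuk (IKKα) averaged 6.25 ± 0.406 FPKM with PBS and 6.14 ± 0.0887 FPKM with vesicles, Ikbkb (IKKβ) 3.47 ± 0.115 and 3.46 ± 0.223 FPKM, and Ikbkg (the scaffold NEMO) 2.78 ± 0.19 and 2.71 ± 0.173 FPKM. Their 95% intervals on the log2 scale reached from -0.16 to 0.12 for Chuk, -0.15 to 0.14 for Ikbkb and -0.19 to 0.13 for Ikbkg. The related kinase gene Ikbke, by contrast, went from 5.87, 5.55 and 4.82 to 41.1, 34.8 and 41.3 FPKM (log2 fold change 2.64, adjusted p = 5.72e-06). Map3k8, which encodes the kinase TPL2 that is held by the Nfkb1 precursor, rose by 1.00 (adjusted p = 0.000243). Tab1 and Tab3, adaptors of the kinase TAK1, fell by 0.30 and 0.22, and both calls were lost after median-of-ratios scaling (adjusted p = 0.137 and 0.237) and when some libraries were left out.

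Genes that control the non-canonical route had 6 of 9 higher and 2 lower (22.2%, against 35.6% of all genes called lower and 18.4% higher). Traf3 and Cd40 reached the filter only with their vesicle libraries, and among the other 7 genes 4 were higher and 2 lower. Birc3, a ubiquitin ligase gene that helps to keep NIK low, went from 3.88 ± 0.386 to 29.2 ± 2.17 FPKM (log2 fold change 2.63, adjusted p = 4.12e-06). Cd40, a receptor that triggers the route, went from 0.199 ± 0.0407 to 2.8 ± 0.298 FPKM, a log2 fold change of 1.66 that became 3.28 with a pseudocount of 0.1, and Traf2 rose by 0.96. Map3k14, which encodes NIK and was named after its values were seen, was not called, at 3.47 ± 0.129 and 3.09 ± 0.341 FPKM. The deubiquitinase gene Otud7b fell by 0.84, and Tnfrsf11a, the RANK receptor gene, by 0.34, though with replicate 3 left out of both groups its adjusted p was 0.0646.

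Of 6 genes of the ubiquitin ligase that removes phosphorylated IκB, 3 were higher and 1 lower, all by less than 0.4 on the log2 scale. That was 50% higher and 16.7% lower, against 18.4% and 35.6% of all genes. Nedd8 rose by 0.39, Fbxw11 by 0.31 and Rbx1 by 0.20, and Btrc fell by 0.20. Btrc turned to 0.016 with quantile normalization (adjusted p = 0.865) and lost its call in 11 other alternatives of 15. Rbx1 lost its call in 7 of 15, with an adjusted p of 0.051 to 0.149 in those, and Fbxw11 in 1, with replicate 3 left out of both groups (0.0524). Among 11 tested IκB-like and nuclear partner genes, 1 was higher and 3 lower. As deposited, their 9.09% higher and 27.3% lower were both below the shares of all genes. With median-of-ratios scaling and with quantile normalization, 3 of the 11 were higher and 2 lower. Of all genes 26.5% and 24.1% were then higher, and 26% and 25.2% lower. Nfkbid encodes another nuclear IκB protein and went the other way from Nfkbiz and Bcl3, from 6.98, 6.13 and 6.65 FPKM to 3.78, 3.76 and 5.03 FPKM (log2 fold change -0.56, adjusted p = 0.00497). With replicate 1 left out of both groups its adjusted p was 0.0574. Nfkbil1 rose by 0.26 and Nkap fell by 0.35, with adjusted p of 0.0864 and 0.0601 once replicate 3 was left out. Pdlim2 fell by 0.18, a call lost in 13 of 15 alternatives.

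Brakes on the pathway gave 5 of 10 higher and 3 lower. The 50% higher stood against 18.4% of all genes, and the 30% lower was near the 35.6% of all genes. The RNase gene Zc3h12a rose from 8.0 ± 0.837 to 50.1 ± 3.03 FPKM (log2 fold change 2.51), Tnip1, which encodes a partner of the A20 protein, by 2.04 and Tnip3 by 0.89. Tnfaip3, which encodes A20 itself and was also named after its values were seen, had a log2 fold change of only 0.43 (adjusted p = 0.0275), lost in 7 of 15 alternatives. The 3 lower genes, Tnip2, Itch and Tax1bp1, fell by 0.28, 0.23 and 0.20, and no call of a lower brake was left (0 genes) with replicate 1 left out of both groups or with median-of-ratios scaling. Of 10 linear ubiquitin and adaptor genes, 4 were higher and 4 lower, and the 40% lower was near the 35.6% of all genes. After median-of-ratios scaling 5 were higher and 1 lower, where 26.5% and 26% of all genes were. With the replicate number as a block the counts were 4 and 2. Irak3, which encodes an inhibitory kinase-like protein, rose by 3.75 (adjusted p = 1.7e-06), Myd88 by 1.31 and Irak2 by 0.89, while Traf6 fell by 0.38.

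Known NF-κB targets were listed from general knowledge of inflammation and with earlier results of these data known. Of 20 with values, 16 were higher, Bcl2l1 was lower, and Nos2, Il12b and Csf2 were below the filter. Of the 17 tested, 7 reached the filter only with their vesicle libraries (Il1b, Cxcl1, Cxcl2, Ccl5, Traf1, Il6 and Lcn2), so their calls are no support. Among the other 10, 9 were higher and 1 was lower, where 18.4% of all genes were called higher and 35.6% lower. As earlier results were known when the list was drawn up, this count too is only a description. The largest log2 fold changes belonged to genes of the former kind, at 7.66 for Il1b, 6.63 for Ccl5 and 4.99 for Lcn2. With a pseudocount of 0.1 they became 8.85, 7.42 and 7.73, which puts Lcn2 before Ccl5. Bcl2l1, which encodes the survival protein Bcl-xL, fell from 6.02 ± 0.085 to 3.55 ± 0.235 FPKM (log2 fold change -0.63, adjusted p = 0.000202).

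**Figure D5:**
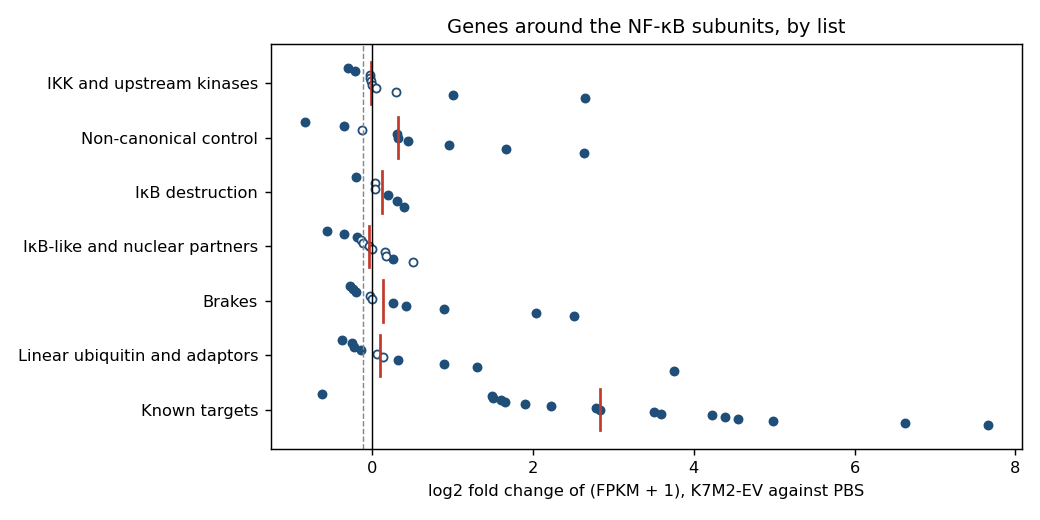
Log2 fold change of (FPKM + 1) of the genes tested in 7 lists around the NF-κB members, each point a gene, filled where the adjusted p was under 0.05. Red bars mark the median of each list, including the 7 targets and 2 non-canonical genes that passed the filter only with vesicle libraries, and the dashed line the median of all genes (-0.12).

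The genes most like each member were taken as the highest Pearson correlation over the 6 libraries of log2(FPKM + 1), among 6109 genes averaging 5 FPKM or more. The gene most like Nfkb2 was Nfkbia (r = 0.9997), and Irak3 was the second most like both. Rtp4 was closest to Nfkbia and to Bcl3, and Pstpip1 to Nfkb1. Such values separate mainly the 2 groups: 391 genes had r over 0.99 with Nfkbia and 382 with Nfkb2. For Rel that number was 31, for Nfkbie 4 and for Rela 0, whose closest gene was Washc5 (r = 0.987). The 6 points share their groups and libraries, and the values are a description.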

How the data were processed

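RNA was sequenced from 3 PBS and 3 K7M2-vesicle macrophage libraries. The authors deposited FPKM values, a table per library with 26883 gene rows. The unit is named in the description of the tables used here and not in the file headers. Per the submitters' processing notes, CASAVA 1.8, HISAT2 2.1.0, StringTie 1.3.4b, edgeR and GRCm38 were used, with no role stated. The titles gave each library's group and number. They call the replicates biological and the design text speaks of independent experiments, without naming the animals, so p-values measure the spread between these libraries.

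A row without a value (1) and 47 repeated symbols were dropped, keeping the row with the highest mean. The filter kept 13009 genes that reached 1 FPKM in 3 or more libraries. Their log2(FPKM + 1) values were fitted with limma 3.58.1 (pseudocount 1, trend and robust settings, statmod 1.5.0) in R 4.3.3, with Benjamini-Hochberg adjustment over all of them. Fragments behind a value were estimated from the step between low FPKM values and the exon length in GENCODE M21 (GRCm38), matched by symbol for 99.5% of genes. Between 72.4% and 73.3% of values worth at most 20 fragments were whole within 0.1, where chance gives 20%. That share was too low to recover counts. Ratios used an exact permutation test (SciPy 1.17.1). Promoter windows came from the RefSeq table for GRCm38.p6.

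The members and lists were chosen with earlier results of these data known. All members are named whatever their result, and from each other list at most the 3 largest changes in each direction, except where stated. Of 12 IκB-like and partner genes with values 1 was below the filter. Dendritic and lymphocyte markers were under 1 FPKM in every library, and mast cell markers were not analysed here. Deviations from the group means correlated between libraries of equal number (0.317, 0.294 and 0.209), and on that basis alone, with no label saying so, equal numbers were treated as pairs in an alternative fit. The steps were tested on simulated data with known changes. Figures were drawn with matplotlib 3.10.9.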

Additional observations from a re-analysis of the deposited data

How the results depend on the processing

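In all 15 alternatives 9 members were higher and 0 lower, and the log2 fold changes ranged from 0.60 to 0.81 for Rel and from 3.84 to 4.09 for Nfkbia. With the replicate number as a block, 9 members were again higher, and of the 36 other named genes the block ended the calls of Btrc and Pdlim2. Median-of-ratios scaling turned Rela to 0.089, Chuk to 0.11, Ikbkb to 0.11 and Ikbkg to 0.077, and quantile normalization turned Chuk to 0.056, Ikbkb to 0.14, Ikbkg to 0.14, Map3k14 to 0.024, Btrc to 0.016 and Pdlim2 to 0.028. Leaving out libraries gave -0.055 to 0.034 for Chuk, -0.039 to 0.037 for Ikbkb and -0.089 to 0.0098 for Ikbkg. Of the 73 other pathway genes tested, 37 were higher and 16 lower, where 18.4% and 35.6% of all genes were. The 37 include 7 known targets, Traf3 and Cd40, which reached the filter only with vesicle libraries. Their calls are no support. The higher count was 43 after median-of-ratios scaling, 37 with quantile normalization and 31 to 36 when libraries were left out. In the same order, the lower count was 6, 7 and 5 to 12. Over all genes, leaving out libraries gave 1531 to 2416 higher and 2847 to 4281 lower. The lowest counts came without both libraries of replicate 3, and without both of replicate 2 they were 2365 and 4195. The cause of these changes was not tested. The 7 ratios kept their direction in all 8 alternatives, with p = 0.25 by the exact permutation test within same-numbered pairs, the smallest p that 3 pairs allow. The depth limits Bcl3, Relb and Nfkbib most, at about 147, 209.7 and 209.8 fragments in the lowest library.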
